A study of Mus musculus with 2 samples.

Results

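The RNA of 10 alpha and beta tubulin genes was measured in G1E, an immortalized mouse cell line that the labels call a Gata1- erythroid progenitor. The genes were the alpha tubulins Tuba1a, Tuba1b, Tuba1c and Tuba4a and the beta tubulins Tubb1, Tubb2a, Tubb2b, Tubb4b, Tubb5 and Tubb6. They were found by matching gene identifiers to GENCODE symbols, and all 10 were present among the 43346 gene entries. The data were 2 libraries of polyadenylated RNA, replicate 1 and replicate 2, of 1 group. The labels give the line as male and postnatal with an age of 0 days and name no treatment. Replicate 1 held 61982634 expected counts and replicate 2 held 80658648. The labels number the libraries as biological replicates but cite 1 cell sample for both, so the spread between them may be technical. No other condition was analysed here, and every value is a level, a share within a library or a difference between these libraries.

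GATA1 is a DNA-binding factor needed for red cell maturation. Gata1 RNA stood at 48.02 TPM in replicate 1 and 46.61 TPM in replicate 2, so the RNA level by itself does not check the label Gata1-. All 7 erythroid progenitor markers examined (Gata2, Kit, Tal1, Klf1, Zfpm1, Epor and Gfi1b) were above 10 TPM in both libraries. Of 7 megakaryocyte markers 4 reached 1 TPM in both, led by Itga2b at 22.99 and 27.95 TPM, and none of 7 neuron markers, 4 lymphocyte markers or 4 fibroblast markers did. Of 4 neutrophil and monocyte markers 1 reached it (Mpo, 1.52 and 1.76 TPM), and of 4 mast cell markers 1 did (Cpa3, 3.32 and 3.41 TPM).

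Alpha and beta tubulin are the proteins that pair into the heterodimers from which microtubules are built. Vertebrates carry several genes, called isotypes, for each, and the encoded proteins differ mostly at their carboxy-terminal tails, where motor proteins and modifying enzymes act. In blood cells Tubb1 is known as the beta tubulin of megakaryocytes and platelets. Cells also hold their tubulin RNA in check: when soluble tubulin is abundant, TTC5 recognises the first residues of the emerging tubulin chain on the ribosome and the RNA is degraded.

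The 3′ ends of the coding sequences are shown because they encode the tails on which the modifying enzymes act; close pairs such as Tubb2a and Tubb2b are nearly alike there. Each run below holds the last 60 coding bases, stop codon included, 5′ to 3′ on the coding strand, with the last codon before the stop in capitals. All lie within exon 4, the last exon, of the transcript chosen for the named gene in GENCODE M21. That was the protein-coding transcript with the longest coding sequence among those with an annotated start and stop. For Tuba4a it was Tuba4a-202. The tails of Tuba1c and Tuba4a were as follows.
Tuba1c: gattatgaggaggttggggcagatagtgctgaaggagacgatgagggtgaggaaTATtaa
Tuba4a: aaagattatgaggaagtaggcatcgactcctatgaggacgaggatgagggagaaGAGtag
These lie on the plus strand at chr15:99037950-99038009 for Tuba1c and on the minus strand at chr1:75215622-75215681 for Tuba4a, in assembly mm10. Tuba1a and Tuba1b ended in the tyrosine codon TAC and Tuba1c in the tyrosine codon TAT, whereas Tuba4a ended in GAG, a glutamate codon. That last tyrosine is the residue which detyrosinating enzymes remove and tubulin tyrosine ligase restores.

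The tails of 5 of the beta tubulins were as follows.
Tubb1: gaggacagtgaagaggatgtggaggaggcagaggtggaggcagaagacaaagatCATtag
Tubb2a: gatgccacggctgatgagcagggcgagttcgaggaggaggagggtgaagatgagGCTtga
Tubb2b: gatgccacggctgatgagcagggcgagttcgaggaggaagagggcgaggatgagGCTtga
Tubb4b: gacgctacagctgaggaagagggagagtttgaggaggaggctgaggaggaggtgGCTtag
Tubb5: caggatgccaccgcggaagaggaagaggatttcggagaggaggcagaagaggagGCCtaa
Tubb1 lies on the plus strand at chr2:174457823-174457882, and the minus strand carries Tubb2a at chr13:34074468-34074527, Tubb2b at chr13:34127471-34127530, Tubb4b at chr2:25222308-25222367 and Tubb5 at chr17:35834982-35835041. Tubb2a and Tubb2b differed at 3 of the 60 bases, G39A, T45C and A48G (Tubb2a base first, positions counted from 1 at the 5′ end of the printed run). Tubb4b and Tubb5 differed at 24 of 60 positions, also base by base. Their coding sequences hold 445 and 444 codons and the runs were not aligned, so that number may include an offset between them. No sequence is shown for Tubb6.

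The first 30 coding bases are shown for Tuba1b and Tuba4a and for the most abundant beta tubulins, Tubb4b and Tubb5, since the autoregulation of tubulin RNA reads this end of the chain; capitals mark the first 4 codons.
Tuba1b: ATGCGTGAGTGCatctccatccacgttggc
Tuba4a: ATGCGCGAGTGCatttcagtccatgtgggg
Tubb4b: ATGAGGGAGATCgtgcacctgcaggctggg
Tubb5: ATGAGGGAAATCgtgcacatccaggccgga
The first 12 bases of Tuba1a and Tuba1c were identical to those of Tuba1b, and Tuba4a spelled them with the second codon changed at its last base. Both beta tubulins shared their first 4 codons with each other except for A9G, with the Tubb5 base first. In the alpha tubulin genes exon 1 ends within this stretch and the rest lies in exon 2, whereas in the beta tubulin genes it lies wholly in exon 1. The Tuba4a start is that of Tuba4a-202, which held 0.88% and 1.22% of the gene's TPM. The more abundant models Tuba4a-206 and Tuba4a-201 do not reach that start.

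Of the 10 genes, 7 were detected, meaning at 1 TPM or more in both libraries (TPM is an abundance scaled by transcript length and library total). Tubb4b, Tubb5 and Tuba1b stood far above the rest. Together they made up 90.1% of the TPM of all 16 annotated alpha and beta tubulin genes in replicate 1 and 90.8% in replicate 2. Tuba1c and Tuba4a followed at 38.11 to 68.12 TPM, Tubb2a and Tubb2b were lower still, Tuba1a and Tubb6 were near or below 1 TPM, and Tubb1 was listed at 0.

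**Figure D1:**
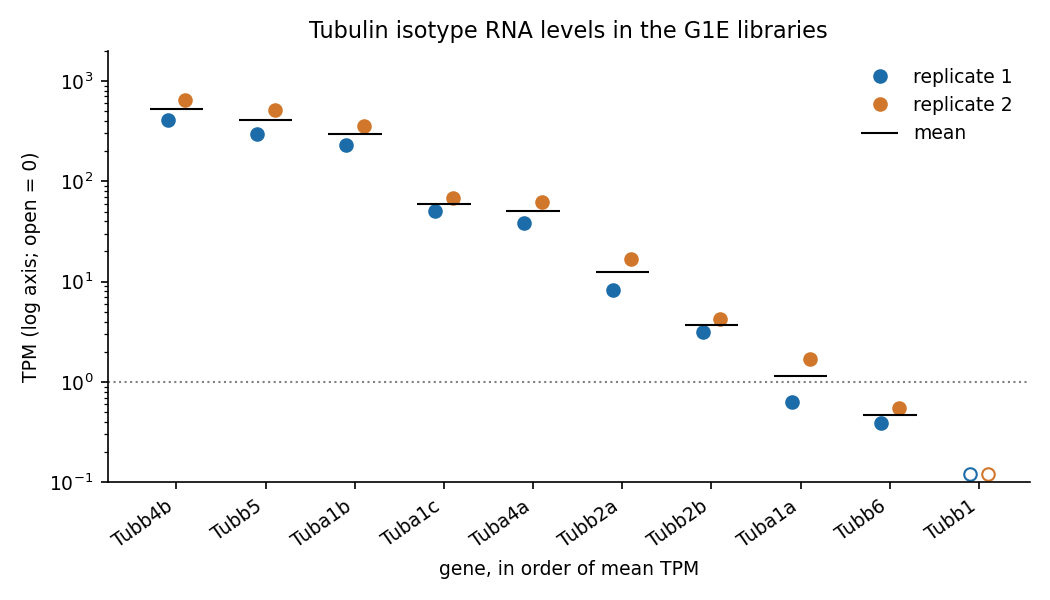
TPM of each of the 10 tubulin genes (log axis) in replicate 1 and replicate 2, with the mean as a bar and a dotted line at 1 TPM; open points stand for 0. Replicate 2 was the higher library for each of the 9 genes with counts, and Tubb4b, Tubb5 and Tuba1b lie between 230.47 and 644.47 TPM.

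Tuba1b was the main alpha tubulin. Its gene lies on the minus strand at chr15:98931425-98934565, and its level was 230.47 TPM in replicate 1 and 358.91 TPM in replicate 2, or 294.69 ± 90.8 TPM (SD, n = 2). That placed it at the 95.1st percentile by mean TPM of the 9150 detected genes. Tuba1b supplied 72.0% and 73.1% of alpha tubulin TPM in the 2 libraries, or 72.5% ± 0.791 (SD, n = 2). Its share was nearly level between the libraries although its TPM was not.

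Tuba1c and Tuba4a supplied most of the remainder. Tuba1c (plus strand, chr15:99029891-99038110) was at 51.01 and 68.12 TPM, or 59.6 ± 12.1 TPM (SD, n = 2), and gave 15.9% and 13.9% of alpha tubulin TPM. Tuba4a (minus strand, chr1:75214228-75219865) was at 38.11 and 62.33 TPM, or 50.2 ± 17.1 TPM (SD, n = 2), and gave 11.9% and 12.7%. Tuba1c was above Tuba4a in both libraries, although their ranges over the libraries overlapped and the gap was smaller than the summed SDs. Both lay below Tuba1b by more than the summed SDs. Because Tuba4a is the detected isotype without a final tyrosine codon, alpha genes that end in TAC or TAT made up 88.1% and 87.3% of alpha tubulin TPM.

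Tuba1a, known as the main alpha tubulin of developing neurons, was a trace isotype here. The gene lies on the minus strand at chr15:98949837-98953703, and 52.91 and 174.36 expected counts put it at 0.63 and 1.69 TPM. It gave 0.197% and 0.344% of alpha tubulin TPM. The ratio of Tuba1b to Tuba1a TPM was 366 in replicate 1 and 212 in replicate 2.

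Tubb4b had the highest gene-level TPM of the 10 genes. It is a widely expressed beta tubulin, encoded on the minus strand at chr2:25222160-25224702. Its level was 407.37 and 644.47 TPM, or 525.9 ± 168 TPM (SD, n = 2), at the 97.2nd percentile of detected genes. Tubb4b gave 57.0% and 54.5% of beta tubulin TPM.

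Tubb5, the major beta tubulin of dividing cells, came next. The gene lies on the minus strand at chr17:35833921-35838306, and its level was 294.69 and 514.95 TPM, or 405 ± 156 TPM (SD, n = 2), at the 96.3rd percentile. Tubb5 gave 41.3% and 43.6% of beta tubulin TPM, or 42.4% ± 1.64 (SD, n = 2). Tubb4b was above Tubb5 in both libraries, by 1.38-fold and 1.25-fold, but the ranges of the genes overlapped and the gap was smaller than the summed SDs. Tubb5 was likewise above Tuba1b in both libraries, with ranges that overlapped and a gap smaller than the summed SDs.

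The order of Tubb4b and Tubb5 turned on the unit. Tubb5 drew more counts, 41177 and 91002, than Tubb4b with 30197.82 and 54152.68. Its effective length, the length over which read pairs can start, was 1.88 and 2.10 times that of Tubb4b, and TPM divides by that length. In shares of counts, which favour long transcripts, Tubb5 was 56.8% and 61.7% of the beta tubulins (exact 95% Clopper-Pearson intervals of 56.5% to 57.2% and 61.4% to 61.9%, counting error only).

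**Figure D2:**
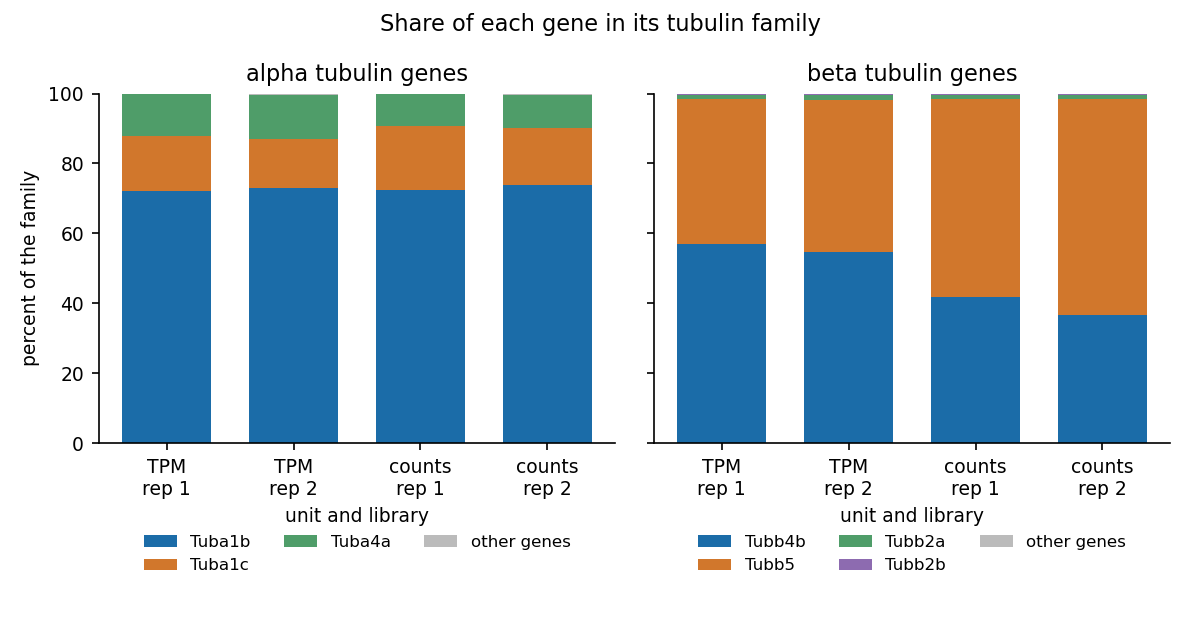
Percent of alpha tubulin (left) and beta tubulin (right) from each gene, by TPM and by expected counts in each library; bars are stacked to 100 and rep is short for replicate. Tuba1b fills a similar part of every alpha bar, while Tubb4b leads the beta bars by TPM and Tubb5 leads them by counts.

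Tubb2a and Tubb2b, a pair of neighbouring genes best known from neurons, were minor. Tubb2a (minus strand, chr13:34074274-34078007) was at 8.21 and 16.82 TPM and gave 1.15% and 1.42% of beta tubulin TPM. Tubb2b (minus strand, chr13:34126748-34130466) was at 3.13 and 4.24 TPM and gave 0.438% and 0.359%. Tubb2a lay above Tubb2b in both libraries by more than the summed SDs, and below Tuba4a by the same rule.

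Tubb6, a divergent beta tubulin, had 35 and 63 counts, which came to 0.39 and 0.55 TPM. Its values did not overlap those of Tuba1a, but the gap between them was smaller than the summed SDs. Tubb1, the platelet isotype (plus strand, chr2:174450695-174457882), had 0 counts in both libraries. A count of 0 allows up to 3 counts, equal to 0.0484 CPM (counts scaled by the library total) in replicate 1 and 0.0372 CPM in replicate 2. The libraries that held no Tubb1 counts did hold the megakaryocyte gene Itga2b and low levels of Gp1ba (8.9 and 9.1 TPM) and Gp9 (6.31 and 9.4 TPM). In bulk RNA, fewer cells of a type and less RNA per cell cannot be told apart.

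The other annotated tubulin genes of these families added almost nothing. Tuba3a, Tuba3b and Tubal3 had 0 counts in both libraries, and Tuba8 had 2 and 5. Tubb3, the neuronal beta tubulin, had 14 and 26 counts, or 0.15 and 0.21 TPM. Tubb4a, known from brain, had 43 and 75 counts, or 0.37 and 0.51 TPM.

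Summed over the 8 genes of each family, alpha tubulin RNA came to 320.24 and 491.08 TPM and beta tubulin RNA to 714.31 and 1181.75 TPM. Beta tubulin thus exceeded alpha tubulin by 2.23-fold in replicate 1 and 2.41-fold in replicate 2, or 2.32 ± 0.124 (SD, n = 2). On the log2 scale the ratio of alpha to beta was -1.21 ± 0.0774 (SD, n = 2). Over these genes alone, each family's total differed between the libraries by over 1.5-fold, and the ratio of the families moved far less.

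Much of the sequence of Tuba1a, Tuba1b and Tuba1c is shared, so a short read from it need not name its gene, and their values rest on how the shared reads were divided. The coding sequence of Tuba1b was 98.3% identical to that of Tuba1a and 98.4% identical to that of Tuba1c, but 85.9% identical to that of Tuba4a. Of the 50-base words in the Tuba1b transcript 73.8% also occurred in another gene's transcript in GENCODE M21. The shares were 72.9% for Tuba1a and 61.0% for Tuba1c. Some of those genes were absent from the deposited entries. With only genes present there, the shares were 73.0% for Tuba1b, 61.1% for Tuba1a and 59.9% for Tuba1c. Tuba4a, read from Tuba4a-202, shared 1.11% of its words, Tubb5 shared 0.115%, and Tubb1 and Tubb6 shared none. Tubb2a and Tubb2b (96.5% identical) shared 49.6% and 39.3% of their words, or 45.6% and 33.4% with genes among the deposited entries. Tubb4b shared 50.9%, all of it with pseudogenes, and its coding sequence was 82.8% identical to that of Tubb5.

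The deposited posterior SDs show how firmly the shared reads were divided. For Tuba1b the SD was 108.76 counts of 20569.53 in replicate 1 and 134.69 of 40327.38 in replicate 2, and for Tuba1c it was 80.37 of 5222.91 and 89.58 of 8812.32. Tuba1a had the least certain count relative to its size, with an SD of 6.97 of 52.91 and 18.42 of 174.36. Tubb4b, in spite of its pseudogenes, had SDs of 1.18 and 1.5 counts, and Tuba4a, Tubb5 and Tubb6 had SDs of 0.

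In replicate 1 an alpha tubulin pseudogene took as many TPM as the main alpha gene. Gm17383, annotated as a processed pseudogene, had 12109.98 and 11913.56 counts, or 241.7 and 188.59 TPM. Tuba1b stood at 230.47 and 358.91 TPM in the same libraries, below the pseudogene in replicate 1 and above it in replicate 2. By counts Tuba1b was the higher in both libraries, with 20569.53 and 40327.38. The effective length by which TPM divides was 897.05 and 893.34 bases for Gm17383, against 1597.97 and 1588.88 for Tuba1b. Of the 50-base words of Gm17383, 73.6% occurred in a member's transcript. The posterior SD of its count was 74.38 and 107.83, so the estimate itself assigned these reads narrowly. The entry spanned 1041 bases in the deposited tables against 1355 in GENCODE M21. Whether its reads came from Gm17383, Tuba1a, Tuba1b or Tuba1c was not tested.

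Gm17383 moved against Tuba1b between the libraries. On TMM-scaled counts (totals corrected for composition) it was lower in replicate 2 by a log2 ratio of -0.52, where Tuba1b was higher by 0.47. Tuba1a, Tuba1b and Tuba1c together differed by 1.35-fold, and by 1.14-fold once the 6 alpha pseudogenes that share 100 or more words with a member were added. Those 6 were chosen after the values were seen. The others among them were low: Gm14150 had 4.86 and 4.9 TPM, Gm5620 had 2.79 and 1.4 TPM, Gm6682 had 1.06 and 1.15 TPM, Gm3756 had 0.47 and 0.1 TPM, and Gm15599 had 0 counts.

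With these pseudogenes in the alpha total, the family values shift. That total was then 571.12 TPM in replicate 1 and 687.22 TPM in replicate 2. The alpha to beta ratio became 0.799 in replicate 1 and 0.581 in replicate 2 in place of 0.448 and 0.416, and the Tuba1b share of the alpha total became 40.4% and 52.2%. In this count the ratio of the families moved between the libraries by more than the alpha total did. Gm17383 then held 42.3% and 27.4% of the alpha total by TPM, and 29.5% and 17.8% by counts. The beta pseudogenes that share words, Tubb4b-ps1, Gm16165 and Tubb4b-ps2, summed to 0.26 and 0.48 TPM. Tubb4b-ps1, with 8.62 and 35.44 counts, was the largest of them.

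Several members have more than 1 annotated transcript, and for Tubb4b the division matters. Tubb4b-201, the coding transcript, held 340 TPM in replicate 1 and 424.23 in replicate 2. Tubb4b-202, a noncoding processed transcript of 831 bases of which 490 lie in introns of Tubb4b-201, held 67.37 and 220.24 TPM. Tubb4b-202 therefore made up 16.54% and 34.17% of the gene's TPM. On TMM-scaled counts Tubb4b-202 was 2.91-fold higher in replicate 2, and Tubb4b-201 was 1.11-fold higher.

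Counting coding transcripts alone, Tubb4b and Tubb5 had no fixed order. Tubb4b stood at 340 and 424.23 TPM and Tubb5 at 294.39 and 514.49 TPM, a ratio of 1.15 in replicate 1 and 0.825 in replicate 2. Tubb5 then gave 45.5% and 53.5% of beta tubulin TPM. Beta over alpha tubulin was 2.03 and 1.98 in this count, which was also chosen after the values were seen.

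**Figure D3:**
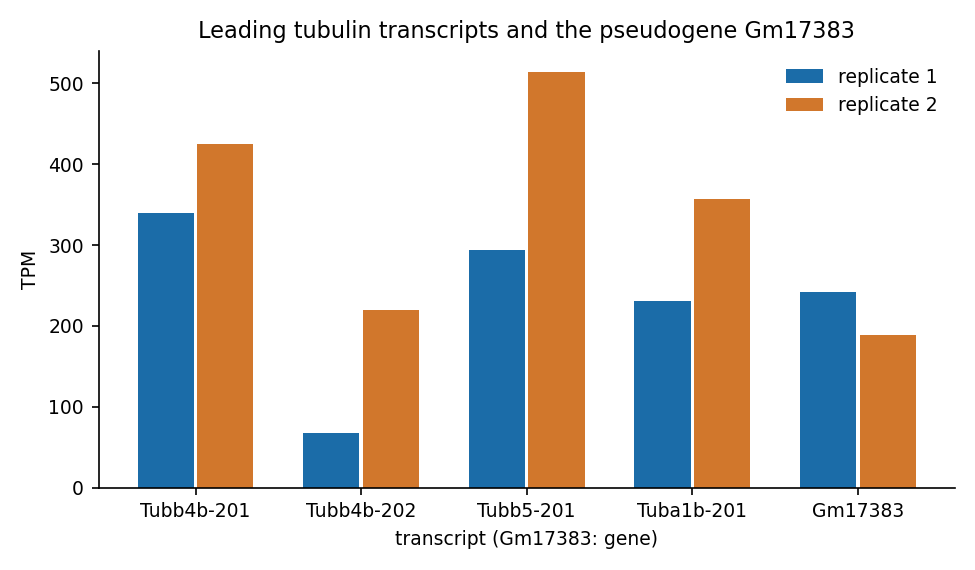
TPM in replicate 1 and replicate 2 of the leading transcripts of Tubb4b, Tubb5 and Tuba1b, of the noncoding transcript Tubb4b-202, and of the pseudogene Gm17383. Tubb4b-201 is above the leading Tubb5 transcript in replicate 1 and below it in replicate 2, and Gm17383 is the feature of the 5 that is lower in replicate 2.

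Tuba4a was read mostly from a fragment model. Tuba4a-206 (1205 bases, 2 exons, no annotated start) held 73.25% and 71.98% of the gene's TPM, and all of its bases lie inside exons of Tuba4a-201, which held 20.24% and 16.38%. Tuba4a also overlaps Stk16 on the opposite strand, a kinase gene with 4904 and 5334 counts, and Tubb4b overlaps Fam166a, with 5 and 2 counts. The use of strand in the counting is not given in the sources used here. Tuba4a had whole counts and posterior SDs of 0, so none of its reads was divided with another gene, and Stk16 also had whole counts. For Tuba1b, Tubb5 and Tuba1a the leading transcript held at least 96.38% of TPM in each library. By posterior mean TPM the Tuba1a value was lower, 69.44% in replicate 1 and 92.25% in replicate 2. Tuba1c, Tubb2a, Tubb2b and Tubb6 had a single transcript.

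All 9 members with enough counts to test were higher in replicate 2. The log2 ratios of replicate 2 to replicate 1 on TMM-scaled counts ran from 0.26 for Tuba1c to 1.22 for Tuba1a, with a median of 0.47, against a median of 0.01 over the 11636 genes tested. Of all genes tested, 51.3% had a ratio above 0. Without TMM correction, on library totals, the median of all genes was 0.13 and that of the members was 0.59, and all 9 were still above 0.

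The call required an adjusted p under 0.05 and a difference of at least 2-fold in an exact conditional binomial test, which measures counting error. The test takes expected counts as if observed, so its p leaves out the doubt in how shared reads were divided. For Tuba1a the posterior SDs were 6.97 of 52.91 counts in replicate 1 and 18.42 of 174.36 in replicate 2. Tuba1a was the 1 member called (2.32-fold, exact test, Benjamini-Hochberg adjusted p = 4.40e-08 over all genes tested), against a background of 5.62% of all genes called. The background was 3.82% for calls higher in replicate 2 and 1.8% for calls in the other direction. With the adjusted p alone, 8 of the 9 passed, all higher in replicate 2, where the background was 64.4% in either direction and 32.2% higher in replicate 2. Tubb6 was the member that did not pass, at 1.27-fold and an exact adjusted p of 0.368.

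Among the abundant isotypes Tubb5 differed most, at 1.56-fold, followed by Tuba4a at 1.41-fold, Tuba1b at 1.39-fold, Tubb4b at 1.27-fold and Tuba1c at 1.19-fold. Of all genes tested 10.5% had a ratio at or above that of Tubb5. Tubb2a differed by 1.83-fold and Tubb2b by 1.22-fold (exact adjusted p = 0.0110), and the pair summed to 971 and 2241 counts. In an edgeR exact test the spread was estimated over all genes from the same libraries (common coefficient of variation of 0.224). None of the 9 members passed, with a lowest edgeR adjusted p of 0.607 for Tuba1a, and 114 of 11636 genes passed in all. Because that spread holds the difference under test, the result cannot decide whether a member differed. At an unadjusted edgeR exact p under 0.05, 1 of the 9 members passed, and 594 of all 11636 genes tested did.

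**Figure D4:**
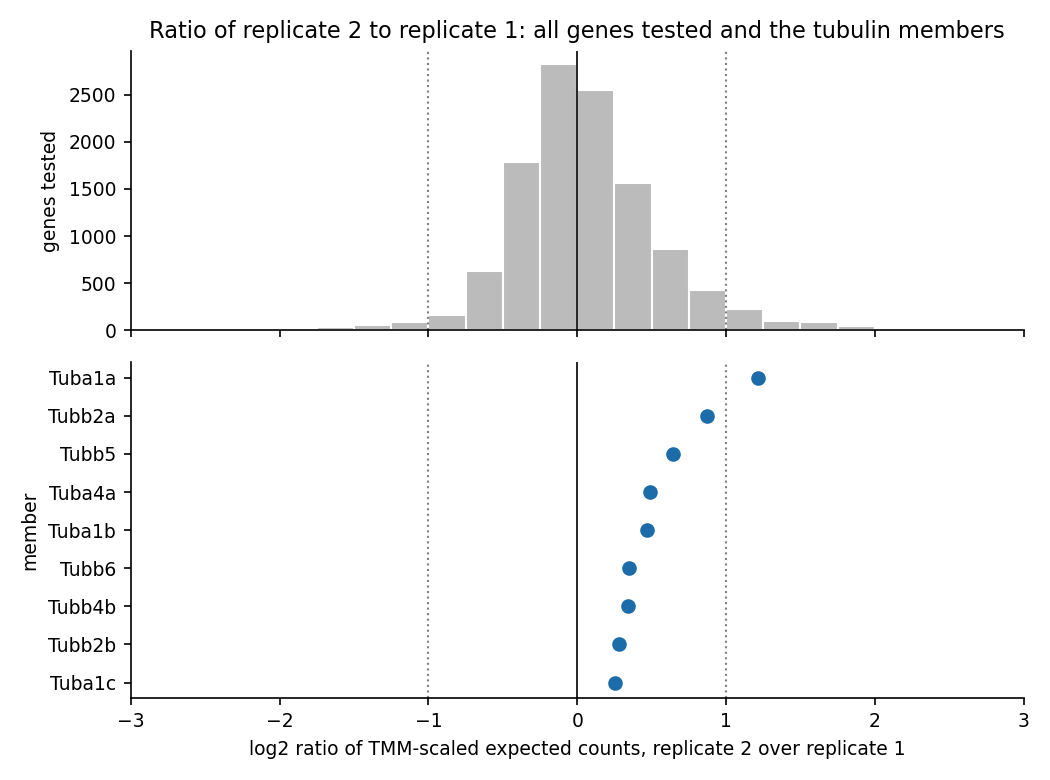
Log2 ratio of replicate 2 to replicate 1 on TMM-scaled expected counts, for all 11636 genes tested (top, number of genes per bin) and for the 9 tested members (bottom); dotted lines mark 2-fold. The members lie between 0.26 and 1.22, right of the peak of the histogram at 0; 48 genes lie beyond the axis.

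Genes that build, fold and modify tubulin were read in the same libraries from 10 lists of 89 genes, 6 of them the other alpha and beta tubulins above. Of the 89 genes 56 were detected and 17 were listed at 0 TPM in both libraries. None of the 64 tested was called different between the libraries by the exact test, against the background of 5.62%. At an unadjusted edgeR exact p under 0.05, 0 of the 64 passed, where 594 of all 11636 genes tested did. With the adjusted p alone, 31 were higher in replicate 2 and 16 in replicate 1, where the background was 32.2% in each direction.

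Folding and nucleation genes were broadly present. All 13 genes of the tubulin folding cofactors and prefoldin, the chaperone that passes new chains to the folding chamber, were detected. Pfdn6 was at 384.78 and 410.43 TPM, Pfdn1 at 175.19 and 161.82 TPM and the GTPase gene Arl2 at 78.32 and 76.36 TPM. Of the 12 genes of gamma, delta and epsilon tubulin and the gamma-tubulin ring complex, which seeds microtubules, 10 were detected. Tubg1 stood at 118.26 and 98.2 TPM, with Mzt2 at 32.88 and 42.94 TPM and Tubgcp6 at 34.41 and 31.78 TPM. Tubg2, the paralogue of Tubg1, had 0 and 1.09 counts.

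Ttc5, the factor that starts tubulin RNA decay, was at 15.75 and 26.08 TPM. It was higher in replicate 2, by a log2 ratio of 0.57. Scaper, its partner in that decay, was at 0.37 and 0.4 TPM.

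Of the 4 genes listed for removing or restoring the final tyrosine, 1 was detected, and no other gene for this step was examined. Ttl, the ligase that restores the tyrosine, had 0 counts in both libraries, and so did Vash2, while Vash1 had 3 and 2 counts; both vasohibins remove the tyrosine. Svbp, the small partner protein of the vasohibins, was by contrast at 506.88 and 564.25 TPM. Tuba1b, whose product ends in that tyrosine, stood at 230.47 and 358.91 TPM in the same libraries.

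Acetylation genes were all detected. The deacetylase gene Sirt2 was at 111.92 and 104.24 TPM, Atat1, which encodes the alpha tubulin acetyltransferase, at 17.07 and 16.54 TPM, and the deacetylase gene Hdac6 at 5.92 and 6.72 TPM. Of 14 genes in the polyglutamylation and polyglycylation list, 7 were detected. Ttll12, a member of that enzyme family with no established glutamylase or glycylase activity, was at 146.32 and 192.67 TPM, Tpgs1 at 93.16 and 80.9 TPM and Ttll4 at 25.13 and 21.53 TPM, and Ttll6, Ttll7, Ttll8 and Ttll9 were at 0. Of 6 deglutamylase genes 2 were detected, Agbl5 at 73.97 and 59.84 TPM and Agtpbp1 at 6.62 and 6.55 TPM, and Agbl1, Agbl2 and Agbl4 were at 0.

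Severing and depolymerising factors were led by Stmn1, which encodes stathmin, a protein that binds free tubulin dimers. Stmn1 was at 92.05 and 181.4 TPM and Kif2a at 33.82 and 32.23 TPM. Of 12 genes in that list 7 were detected, and Fign, Katnal1, Stmn2 and Stmn3 were listed at 0 TPM. Of 17 genes for microtubule-associated and plus-end proteins 12 were detected. Map1s was at 141.78 and 132.9 TPM, Tacc3 at 80.69 and 95.15 TPM and Clasp1 at 23.09 and 30.74 TPM, and Map1b was at 0.

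**Figure D5:**
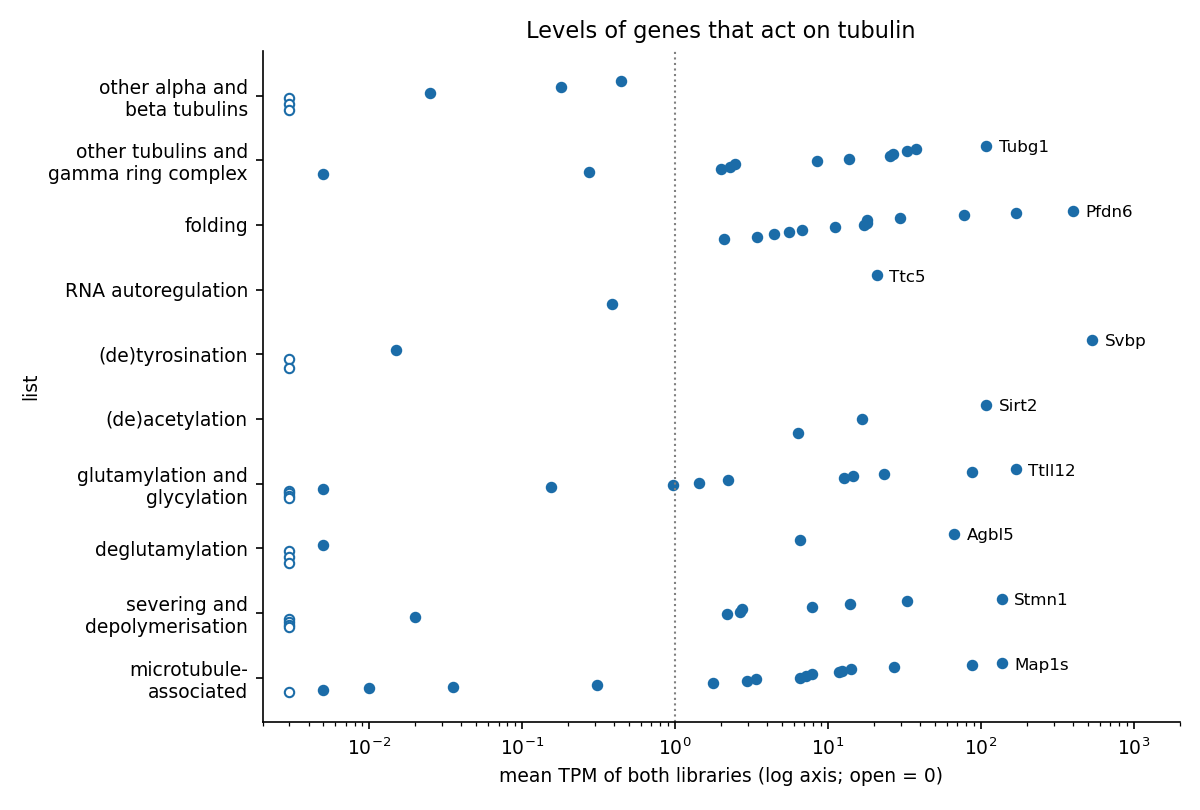
Mean TPM of both libraries (log axis) for each gene of the 10 lists, with the highest gene of each list named where it reaches 1 TPM, a dotted line at 1 TPM and open points for 0. Folding and acetylation genes all lie right of the line, and the tyrosination list has Svbp on the right and its other 3 genes on the left.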

How the data were processed

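For each library the authors deposited a gene table and a transcript table on assembly mm10 with annotation M4, per the file headers and deposited descriptions; aligner, counter and strand setting: not given in the sources used here. Expected counts, as deposited, are estimated read-pair counts in which shared reads are divided by a model. Deposited TPM values are scaled by effective length and library total, and the transcript tables give, per the file headers, each transcript's percent of its gene. Symbols, positions and sequences came from GENCODE M21 (same assembly), and 98.0% of entries matched.

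A family holds its 8 annotated protein-coding genes. Neighbours in level were said to differ where the same gene was higher in both libraries and the gap of means exceeded the summed SDs. Each gene's rounded expected counts in the libraries were compared by an exact conditional binomial test (two-sided) given TMM totals (factors 0.960 and 1.04; 10 or more counts in either library), Benjamini-Hochberg adjusted. The test was tested on simulated data that held counting error alone, with no division of shared reads. It compares these libraries, not conditions. Intervals and limits were computed from the counts within a library, so they reflect counting error alone. No molecular identifiers marked the molecules, so the counts are of read pairs and not of molecules. Named genes were the members, the other alpha and beta tubulins, tubulin pseudogenes with 10 or more counts, the 3 highest and all zero-TPM genes of each list, and markers; other pseudogenes were named after their values were seen, and some items under this rule are not reported here. Members and lists were chosen with earlier results of these data known. Tools were Python 3.11.15, SciPy 1.17.1, pandas 2.3.3, Biopython 1.88, R 4.3.3, edgeR 4.0.16 and DESeq2 1.42.0. Alternatives were other units, scalings, filters, families and transcripts, and either library left out.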

Additional observations from a re-analysis of the deposited data

How the results depend on the processing

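No paired analysis was possible because the libraries form 1 group. The log2 alpha to beta ratio (-1.21) was -1.39 on expected counts, -0.55 with the pseudogenes that share sequence and -1.001 on coding transcripts, and -1.27 to -1.16 on single libraries; on coding transcripts and with pseudogenes the change follows from the features summed. The Tuba1b share of alpha tubulin (72.5%) was 46.3% with those pseudogenes and 72.0% to 73.1% on single libraries. The Tubb5 share of beta tubulin (42.4%) was 59.3% on expected counts, 49.5% on coding transcripts and 41.3% to 43.6% on single libraries. Members called numbered 1, became 8 with no fold requirement and 0 in the edgeR test, and remained Tuba1a under DESeq2 size factors, library totals, posterior mean counts and either other count filter. Genes called in all (654) became 422 at 50 or more counts, 7495 with no fold requirement and 114 in the edgeR test. Posterior mean TPM moved no member's mean by more than 1 SD except Tubb1, from 0 to 0.01. Replicate 2 was the deeper library. Of the listed tubulin members Tubb1 had 0 counts in both libraries, which allows up to 3 counts in each.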
